A study of Mus musculus with 12 samples.

Results

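Chondrocyte-marker cells of the mouse trachea were chosen from single-cell RNA sequencing libraries of a tracheal allograft and of native trachea. A cell was taken when it held at least 5 transcripts (unique molecular identifiers, UMIs) summed over Col2a1, Acan, Chad, Cnmd and Cytl1. It also had to hold 0 UMIs of the adventitial fibroblast genes Pi16 and Dpp4, fewer than 5 UMIs summed over the lung fibroblast genes Inmt, Ces1d, Gria1 and Col13a1, and fewer than 20 UMIs summed over the macrophage genes C1qa, C1qb and C1qc. These terms were met by 46 of 3895 cells of the allograft library (1.18%, exact 95% interval 0.866 to 1.57%) and by 20 of 4156 cells of the native library (0.481%, 0.294 to 0.742%). Together they were 66 of the 8051 trachea cells and of the 12630 cells of the whole series. In the spleen library 0 of 4579 cells met them, which allows a share of up to 0.0655%. Because the rule reads the 5 marker genes, their levels are given below as a description.

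The study labels 3 sources with 4 samples each: tracheal allograft and native trachea, both labelled as mesenchymal progenitors, and spleen, labelled as splenocytes. The labels name no strain, sex, age, agent, or time after grafting. There was 1 matrix for each source, holding its 4 samples pooled with no mark of sample on the barcodes, so every group was 1 library. No comparison between libraries was therefore tested, and all intervals cover counting error only.

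Tracheal cartilage is hyaline cartilage that holds the airway open. Its chondrocytes secrete a network of type II, IX and XI collagen filled with the proteoglycan aggrecan, under the control of the transcription factor SOX9 and its partners SOX5 and SOX6. The perichondrium around each ring is a fibrous sheath rich in type I collagen and small leucine-rich proteoglycans, and its inner layer holds cells that can become chondrocytes. Of the 5 marker genes, Col2a1 encodes type II collagen, Acan aggrecan, Chad the cell-binding matrix protein chondroadherin, Cnmd the angiogenesis inhibitor chondromodulin and Cytl1 a small secreted cytokine-like protein.

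The 4 promoters shown here belong to marker genes found in most cells of both libraries (Chad and Cytl1) and to interferon-induced genes that had no UMI in native cells (Cxcl10 and Igtp, described below). Each runs from 250 bases before to 50 bases after the start of the gene, from RefSeq on GRCm38.p6. Capitals mark every match, on either strand, to 3 motifs searched: GAAANNGAAA, the interferon-stimulated response element; ACAAT, the core bound by SOX factors; and TATAAA, a box of many core promoters. Chad lies at chr11:94564797-94565096 (plus strand), and its box began at position -28. Cytl1 lies at chr5:37735269-37735568 (plus strand) and had no match to these letters.
Chad: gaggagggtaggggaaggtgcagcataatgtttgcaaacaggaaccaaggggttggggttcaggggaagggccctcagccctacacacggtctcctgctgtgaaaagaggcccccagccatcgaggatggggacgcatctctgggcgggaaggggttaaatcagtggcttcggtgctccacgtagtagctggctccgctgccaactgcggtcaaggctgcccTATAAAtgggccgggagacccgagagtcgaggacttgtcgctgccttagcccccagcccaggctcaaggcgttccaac
Cytl1: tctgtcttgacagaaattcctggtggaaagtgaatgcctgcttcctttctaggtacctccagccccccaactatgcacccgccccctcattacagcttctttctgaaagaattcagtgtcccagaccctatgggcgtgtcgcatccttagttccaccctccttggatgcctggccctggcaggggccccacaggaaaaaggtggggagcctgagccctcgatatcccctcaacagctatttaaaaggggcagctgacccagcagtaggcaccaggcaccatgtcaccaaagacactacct
Cxcl10 lies at chr5:92348840-92349139 (minus strand), with GAAAGTGAAA at position -213 and ACAAT at -136. Igtp lies at chr11:58199306-58199605 (plus strand), with GAAACTGAAA at position -34. Over the 32851 mouse promoters of this length that were counted, which do not cover every chromosome, 13.6% held TATAAA, 31% ACAAT and 3.44% GAAANNGAAA. The last was also in Gbp2b and not in Cxcl9. These are matches of letters and not measured binding.
Cxcl10: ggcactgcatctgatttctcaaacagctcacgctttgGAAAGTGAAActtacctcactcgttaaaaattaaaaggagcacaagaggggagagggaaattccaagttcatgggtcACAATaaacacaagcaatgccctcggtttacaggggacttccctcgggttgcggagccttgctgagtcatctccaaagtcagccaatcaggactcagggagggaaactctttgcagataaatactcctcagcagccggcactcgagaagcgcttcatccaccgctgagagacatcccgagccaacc
Igtp: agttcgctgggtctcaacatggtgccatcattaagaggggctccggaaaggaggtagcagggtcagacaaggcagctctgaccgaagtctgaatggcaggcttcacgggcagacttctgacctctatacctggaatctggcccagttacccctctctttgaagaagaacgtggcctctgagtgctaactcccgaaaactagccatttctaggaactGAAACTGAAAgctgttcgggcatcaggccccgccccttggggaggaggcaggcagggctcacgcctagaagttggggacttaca

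The 46 allograft cells held 696689 UMIs, with 1939, 14387.5 and 45294 per cell (lowest, median, highest), and the 20 native cells held 156177, with 1808, 7078.5 and 15140 per cell. Median mitochondrial shares were 6.13% in allograft cells and 5.29% in native cells. The allograft and native libraries shared 4 barcodes over all cells, and none belonged to a chondrocyte-marker cell. At least 5 leukocyte UMIs (Ptprc, Coro1a, Laptm5, Tyrobp and Fcer1g) were found in 22 allograft cells and 2 native cells, and the results they touch most are given also without them. Of the 62 allograft and 32 native cells with enough marker UMIs, 13 and 2 failed the term on C1q genes alone. The term on Pi16 or Dpp4 was failed by 3 and 7, and that on lung genes by 0 and 6, alone or with other terms. More than 1 term was failed by 3 native cells. Just inside the threshold stood 3 allograft cells and 0 native cells with 5 to 9 marker UMIs, and just outside it 9 allograft and 5 native cells with 3 or 4 before the other terms of the rule. A threshold of 3 would have given 48 allograft and 23 native cells.

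The 5 markers were spread unevenly over the cells. Col2a1 had 0, 9 and 670 UMIs per cell in the allograft (lowest, median, highest; 33 of 46 cells with a UMI) and 0, 0 and 46 in native trachea (6 of 20 cells). Acan had 0, 13.5 and 359 in allograft cells (44 cells) and 0, 2.5 and 10 in native cells (13 cells). Chad was found in nearly all cells, with 0, 19.5 and 157 UMIs in the allograft (42 cells) and 0, 15.5 and 52 in native trachea (19 cells). In native trachea Chad was thus found in more cells than Col2a1.
Cytl1 had 0, 23.5 and 401 UMIs in allograft cells (36 cells) and 0, 7 and 181 in native cells (12 cells). Cnmd had 0, 2 and 73 in allograft cells (30 cells) and 0, 0 and 27 in native cells (8 cells). For all 5 genes the libraries overlapped, and the highest cell was an allograft cell.

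**Figure D1:**
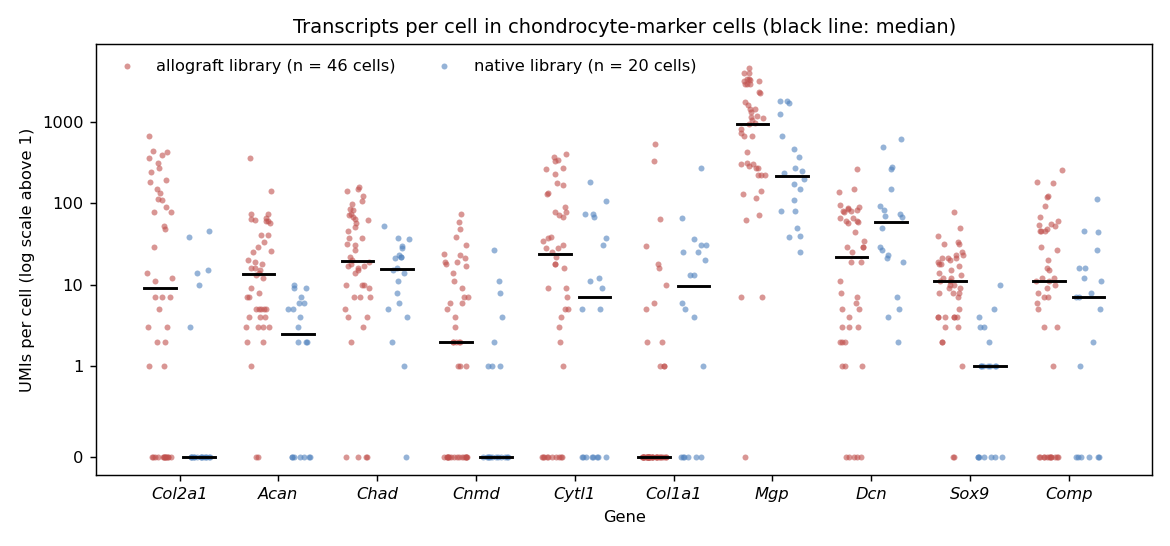
UMIs per cell (y axis, logarithmic above 1) of the 5 marker genes and of 5 genes that the rule did not use, in 46 allograft cells (left, red) and 20 native cells (right, blue), 1 point per cell, with black lines at the medians. Col2a1 medians were 9 in the allograft and 0 in native trachea, Dcn medians 22 and 58, and the libraries overlapped for every gene.

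Cells of the same libraries that should lack cartilage RNA held little of it. Col2a1 had a UMI in 71.7% of allograft chondrocyte-marker cells, against 2.09% of the 383 allograft T cells and 2.91% of the 1581 allograft macrophages, whose median depths were 4073 and 7799 UMIs. With every cell thinned to 1500 UMIs the shares were 58.7% of chondrocyte-marker cells, 1.07% of T cells and 0.887% of macrophages. In native trachea the thinned shares were 30% of chondrocyte-marker cells, 0% of T cells and 0.133% of macrophages. Mgp, the calcification inhibitor matrix Gla protein, was found in every set: it had a UMI in 97.8% of allograft chondrocyte-marker cells against 17.8% of allograft T cells, and in 100% of native ones against 45.3% of native T cells.

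The label was checked on 12 cartilage genes outside the rule: Sox9, Col9a1, Col9a2, Col9a3, Col11a2, Matn1, Matn3, Hapln1, Comp, Snorc, Ucma and Scrg1. In the allograft all 12 were detected, with a summed level of 10963 CPM (UMIs of a gene per 1000000 UMIs of the cells summed), against 1168 CPM in the library's other mesenchymal cells and 14.4 CPM in its T cells. Cells with at least 5 marker UMIs that failed the terms on Pi16, Dpp4 or lung genes were not left out of the other mesenchymal cells. In native trachea 10 of the 12 were detected, at 5078 CPM, against 121 CPM in other mesenchymal cells and 17.2 CPM in T cells. Neutrophil markers summed to 21.5 CPM in allograft cells and 416 CPM in native cells. Fibroblast markers (7 of 11 detected in each library) summed to 9593 CPM in allograft cells and to 27994 CPM in native cells. Among these the rule itself held Pi16 and Dpp4 at 0 UMIs and capped Inmt and Ces1d. Summed over all 20 cells, native trachea thus held fibrous as well as cartilage genes. The cartilage genes were uneven between cells. In the 13 native cells with more Col1a1 than Col2a1 and Acan UMIs, Col9a2 had 8.73 CPM, Col9a3 0 and Col11a2 43.6 CPM. Sox9 had 113 CPM and Comp 2008 CPM in these 13 cells. The fibroblast markers are general, so the perichondrial part of the joint label of chondrocyte and perichondrial cells was not tested.
Defining markers of adipocytes and red cells were at 0 in both libraries. Pan-leukocyte markers (8 of 8 detected in each) summed to 959 CPM in allograft cells and 730 CPM in native cells, macrophage markers to 380 CPM (8 of 8) and 96.0 CPM (6 of 8), and T and NK cell markers to 118 CPM (5 of 6) and 0 CPM. The macrophage sums include C1qa, C1qb and C1qc, which the rule capped.

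Cells were next divided by their collagen. Cells with more Col2a1 and Acan UMIs than Col1a1 UMIs numbered 37 in the allograft and 7 in native trachea. Cells with more Col1a1 UMIs numbered 7 in the allograft and 13 in native trachea, and 2 allograft cells had equal counts. Col2a1 and Acan thus led in most allograft cells and Col1a1, a type I collagen gene of the fibrous layer, in most native cells. Every comparison of these classes below has only 7 cells on one side.

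In the allograft, the 37 Col2a1/Acan-rich cells differed from the 7 Col1a1-rich cells by 2-fold or more at 12.6% of 4303 genes in the higher direction and 12.6% in the lower direction, counting genes with at least 20 summed UMIs and a mean of at least 20 CPM. Higher in the Col2a1/Acan-rich cells were 6 of 7 cartilage collagens, which include Col2a1, a gene of the split itself. Cnmd had 807 CPM there against 80.5 CPM in Col1a1-rich cells (9.45 times, 95% interval 5.05 to 23.4), and Comp, a collagen-binding pentameric protein, had 2741 CPM against 483 CPM (5.62 times, 4.26 to 7.73).
Besides these, Il11, Vegfa and Matn3 had 169, 151 and 99 UMIs in the Col2a1/Acan-rich cells and 0 in Col1a1-rich cells. Against a limit of 3 UMIs they were at least 9.70, 8.66 and 5.68-fold higher, although 1 cell held 56.8% of the Il11 UMIs. Il11 encodes a cytokine of the IL-6 family, Vegfa an angiogenic factor and Matn3 the cartilage protein matrilin 3.
Of 26 measured genes of the perichondrium and fibrous matrix list, 19 were lower and 3 higher in the Col2a1/Acan-rich cells. Col3a1 had 258 CPM in them against 10421 CPM in Col1a1-rich cells (40.3-fold lower, 34 to 48.3), and Igfbp5, an IGF-binding protein, 3.46 CPM against 1750 CPM. One allograft cell held 51.4% of all Col3a1 UMIs and 1 held 52.6% of all Col1a1 UMIs. Of the 1036 Col3a1 UMIs of the Col1a1-rich cells, 1 cell held 617 and another 342, and no other held more than 50. The Col3a1 ratio and its interval thus rested mostly on these 2 cells.

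In native trachea, 10.7% of 1148 genes were 2-fold or more higher and 21.7% lower in the 7 Col2a1/Acan-rich than in the 13 Col1a1-rich cells. All 7 cartilage collagens were higher, of which Col2a1 was fixed by the split. Col9a3 had 32 UMIs in 5 cells against 0 (at least 29.4-fold), and Col11a2 had 1850 CPM against 43.6 CPM (38.8 times, 17.4 to 134). Sox9 had 505 CPM against 113 CPM (4.38 times, 2.12 to 9.67).
Chad and Comp did not follow the collagens in native cells: Chad had 1610 CPM in Col2a1/Acan-rich cells and 2496 CPM in Col1a1-rich cells, and Comp 2066 and 2008 CPM. Of 23 measured fibrous genes, 17 were lower and 1 higher in the Col2a1/Acan-rich cells. Mmp13 (collagenase 3), Mfap4 (a microfibril protein), Aspn (asporin) and Itgbl1 had 0 UMIs in them and 238, 116, 80 and 55 in Col1a1-rich cells. Retnla and Lyz2, macrophage genes, were higher in the Col2a1/Acan-rich cells, with 134 UMIs in 3 cells and 47 UMIs in 2 cells. Their part in the other differences was not tested.

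Across the 46 allograft cells, the share of UMIs from Col2a1 went with that of Cytl1 (Spearman rho 0.83), Cnmd (0.80), Col9a2 (0.79) and Acan (0.74), and went against that of H2-K1 (-0.57), Gbp4 (-0.56) and Cxcl10 (-0.55). Across the 20 native cells rho was 0.94 for Col9a2, 0.84 for Cnmd, 0.75 for Cytl1 and -0.64 for Col1a1, and -0.14 for Chad. These values describe cells that share 1 library, and Cytl1, Cnmd and Acan were read by the rule.

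**Figure D2:**
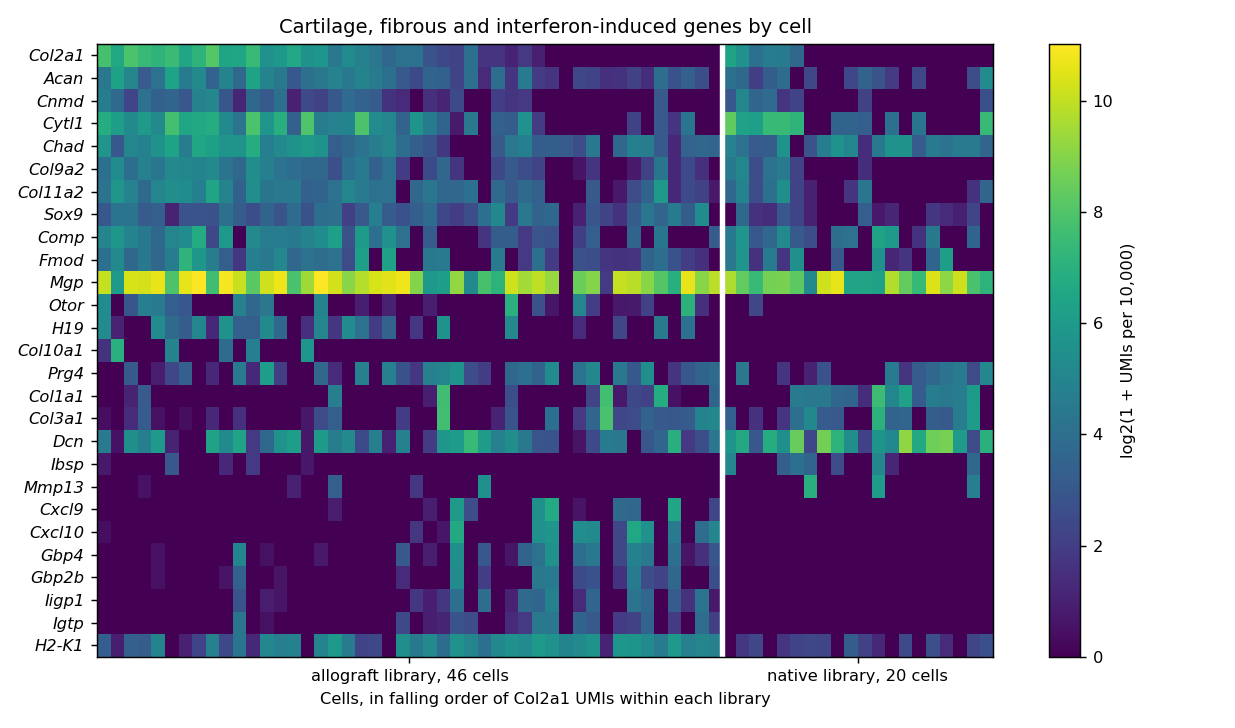
Level of 27 genes (rows) in each of the 66 cells (columns), as log2 of 1 plus UMIs per 10000, with the 46 allograft cells on the left and the 20 native cells on the right, each ordered by falling Col2a1 UMIs. Cartilage genes fade from left to right within the allograft, where Cxcl9, Cxcl10 and Gbp4 appear mostly in cells with little Col2a1.

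Set against native cells, allograft cells had more RNA of cartilage collagens and their partners and less of several fibrous and perichondrial genes. Over 4955 genes with at least 20 summed UMIs and a mean of at least 20 CPM, 629 (12.7%) were 2-fold or more higher in allograft cells and 446 (9.0%) lower, and the median log2 ratio was 0.00. The gene lists below count members with at least 10 summed UMIs.

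In the allograft 6 of the 7 cartilage collagens were higher by 2-fold or more, and the median log2 ratio of the list was 1.74. Col2a1 (chr15:97975602-98004695, GRCm38) had 6363 CPM in allograft cells and 807 CPM in native cells (7.86 times, 95% interval 6.61 to 9.49), which the rule itself read. Col9a3, a chain of the type IX collagen that coats the fibrils, had 1051 CPM against 205 CPM (5.05 times, 3.60 to 7.55). Col11a2, a chain of the type XI collagen in their core, had 1836 CPM against 525 CPM (3.48 times, 2.80 to 4.43).
Within the Col2a1/Acan-rich cells (37 allograft against 7 native) 1 of the 7 collagens was higher, with a median log2 ratio of 0.16, where 16.7% of 3863 genes were higher and 14.9% lower. Col9a2 there had 1634 CPM in the allograft and 1562 CPM in native trachea (1.04 times, 0.813 to 1.37). Within the Col1a1-rich cells (7 against 13) 6 of 7 were higher, with a median of 3.01, or 1.94 with genes at 0 UMIs placed at their bound, where 14.6% of 1639 genes were higher and 12.3% lower. The difference in the pooled cells thus stood beside a different mix of the 2 classes.

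Of 12 proteoglycans and linkers, which include Acan and Chad of the rule, 7 were higher in the allograft and 1 lower. Hapln1, the link protein that ties aggrecan to hyaluronan, had 599 CPM in allograft cells and 179 CPM in native cells (3.28 times, 2.28 to 5.09). Within the Col2a1/Acan-rich cells Hapln1 had 706 CPM in the allograft against 529 CPM, and within the Col1a1-rich cells 90.5 against 52.4 CPM. Acan (chr7:79053483-79115099) had 2063 CPM against 448 CPM (4.57 times, 3.62 to 5.94). Chad (chr11:94565047-94569127), whose promoter is shown above, had 2638 CPM against 2260 CPM (1.17 times, 1.04 to 1.31).
Fmod, which encodes the fibril-binding fibromodulin, had 2119 CPM against 1415 CPM (1.49 times, 1.30 to 1.73), but within the Col1a1-rich cells 563 against 1309 CPM. Epyc, the one lower member, had 10 CPM against 141 CPM (13.4-fold lower, 5.78 to 38.9) from 7 and 22 UMIs. Among 16 genes of sulphation and glycosaminoglycan synthesis 7 were higher and 1 lower. Ugdh, which makes the UDP-glucuronate used in these chains, had 527 CPM against 96.0 CPM (5.32 times, 3.28 to 9.90), and Papss2, which makes the sulphate donor, 201 CPM against 44.8 CPM (4.2 times, 2.12 to 11.4).
The 2 hyaluronan synthases with enough UMIs went opposite ways: Has2 had 83.3 CPM in allograft cells and 6.40 CPM in native cells, and Has1 63.2 and 205 CPM.

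Among 17 cartilage glycoproteins 4 were higher and 3 lower in the allograft. Mgp had 89327 CPM in allograft cells and 62372 CPM in native cells (1.43 times, 1.40 to 1.46), and within the Col1a1-rich cells 55144 and 72590 CPM. Per cell it had 0, 951 and 4605 UMIs in the allograft and 25, 216.5 and 1822 in native trachea. Comp had 2358 against 2023 CPM (1.16 times, 1.03 to 1.32), and Cytl1 (chr5:37735519-37739820) 5077 against 3906 CPM (1.30 times, 1.19 to 1.42). Cytl1 was lower in the allograft within each class, with 6053 against 12880 CPM in Col2a1/Acan-rich cells (2.13-fold lower, 1.94 to 2.33) and 412 against 646 CPM in Col1a1-rich cells (1.56-fold lower, 1.06 to 2.35).
Mia, a secreted protein of chondrocytes, had 221 CPM against 38.4 CPM (5.33 times, 2.58 to 15.9), and its relative Otor (otoraplin) 1448 CPM in 23 of 46 allograft cells against 25.6 CPM, 4 UMIs of 1 cell, in native cells (50.3 times, 22 to 208). Ibsp, bone sialoprotein, went the other way, with 28.7 CPM in allograft cells and 666 CPM in native cells (22.7-fold lower, 14.3 to 39.5). It was found in 5 of 46 allograft cells and in 8 of 20 native cells.

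Among 11 chondrocyte transcription factor genes 5 were higher and 1 lower. Sox9 had 0, 11 and 78 UMIs per cell in the allograft (44 of 46 cells) and 0, 1 and 10 in native trachea (13 of 20 cells). In CPM these were 988 against 218 (4.47 times, 3.21 to 6.60), and within the Col2a1/Acan-rich cells 1092 against 505 (2.12 times, 1.40 to 3.52). Sox5 had 129 CPM in allograft cells and 57.6 CPM in native cells, and Sox6 81.8 and 38.4 CPM. Within the Col2a1/Acan-rich cells neither was higher in the allograft, with 130 and 144 CPM of Sox5 and 76.2 and 96.1 CPM of Sox6. Runx2, a regulator of hypertrophy and bone, had 33 CPM against 76.8 CPM (2.37-fold lower, 1.06 to 4.87).

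Genes of hypertrophy and mineralisation were mixed, with 5 of 11 higher and 3 lower. Col10a1, the collagen of hypertrophic cartilage, had 758 UMIs in 6 allograft cells and 0 in native cells (at least 56.6-fold), and 1 cell held 75.2% of them. Spp1, osteopontin, had 4653 CPM in allograft cells against 986 CPM in native cells (4.70 times, 4.01 to 5.58). Vegfa had 224 CPM against 32 CPM (6.38 times, 2.93 to 21.8). Mmp13 had 84 UMIs in 5 allograft cells and 238 UMIs in 3 native cells, or 121 against 1524 CPM (12.6-fold lower, 9.82 to 16.4). All 84 lay in Col2a1/Acan-rich cells and all 238 in Col1a1-rich cells.

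Of 27 genes of the perichondrium and fibrous matrix, 11 were lower and 5 higher in the allograft, with a median log2 ratio of -0.52. Dcn, decorin, had 0, 22 and 260 UMIs per cell in the allograft (41 of 46 cells) and 2, 58 and 618 in native trachea (20 of 20 cells). In CPM these were 2701 against 15252 (5.65-fold lower, 5.31 to 6.0). Lum (lumican) had 1547 against 3656 CPM (2.36-fold lower, 2.13 to 2.62), and Ogn (osteoglycin) 68.9 against 397 CPM (5.75-fold lower, 3.89 to 8.58).
Col1a1 had a UMI in 14 of 46 allograft cells and 14 of 20 native cells, with 1467 against 3477 CPM (2.37-fold lower, 2.13 to 2.63). Mfap4 had 11.5 against 743 CPM (61.1-fold lower, 31.8 to 153). Itgbl1 had 2 UMIs in the allograft and 55 in 10 native cells (99.0-fold lower, 32.4 to 1038), and Thbs4, a matrix protein of tendon, and Gpha2, a glycoprotein hormone subunit, were also among the lowest ratios.
Fn1 (fibronectin) and Sparc (a collagen-binding protein) were higher, with 9156 against 3067 CPM (2.98 times, 2.72 to 3.28) and 20285 against 9220 CPM (2.20 times, 2.08 to 2.32). Postn, Dpt and Col14a1 were higher in the allograft only through a handful of cells: Postn had 107 UMIs in 3 allograft cells against 8 in 1 native cell.
This direction of the list was not found within the classes. Among Col2a1/Acan-rich cells 7 of 19 measured members were higher in the allograft and 1 lower, with a median of 1.01, or 0.44 with genes at their bound. Among Col1a1-rich cells 9 of 27 were higher and 6 lower, with a median of 0.61. Lum had 1480 against 360 CPM in Col2a1/Acan-rich cells and 1780 against 4853 CPM in Col1a1-rich cells. Col1a1, a gene of the split, had more CPM in the allograft within both classes, but through few cells. Of the 930 UMIs of allograft Col1a1-rich cells, 1 cell held 538 and another 328. Of the 87 UMIs of allograft Col2a1/Acan-rich cells, 1 cell held 64, against 1 UMI in native ones. Dcn was lower in the allograft within both classes, with 2796 against 5527 CPM and 2625 against 18785 CPM.

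**Figure D3:**
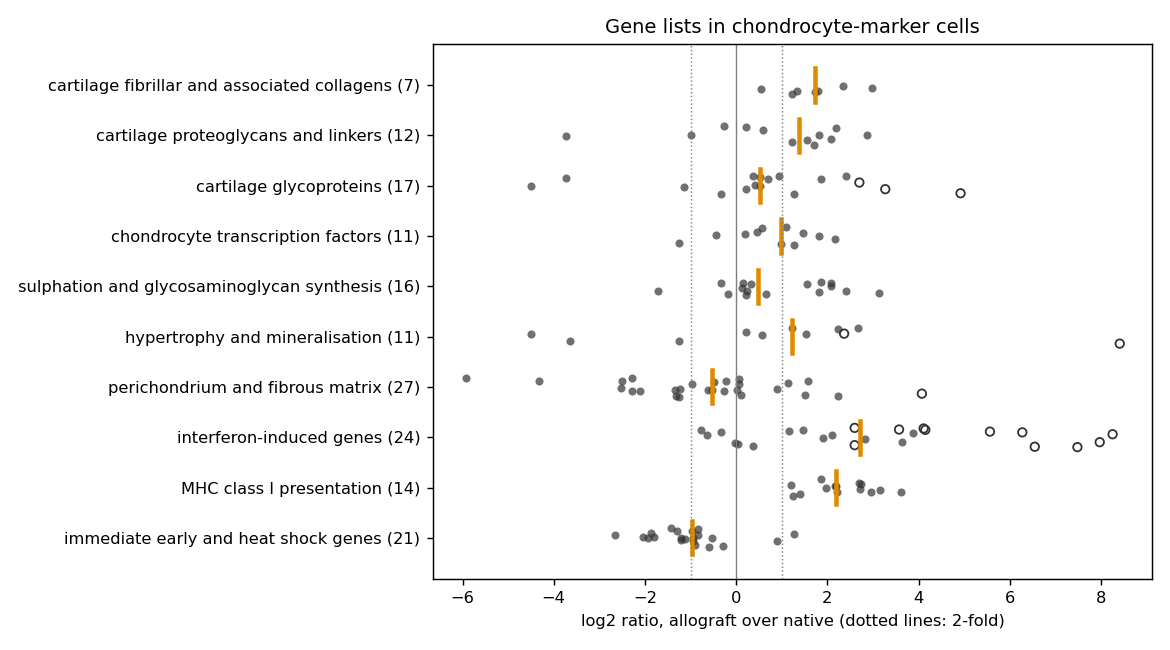
The log2 ratio of allograft over native chondrocyte-marker cells (x axis) for the measured members of 10 gene lists (rows, number of members in brackets), 1 point per gene, open where one library had 0 UMIs, with orange bars at the list medians. Medians were 1.74 for cartilage collagens, 2.20 for MHC class I presentation and -0.97 for immediate early genes, beside 0.00 over all genes compared.

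Matrix proteases and their inhibitors were split, with 6 of 21 higher and 9 lower. Mmp2, gelatinase A, had 221 CPM in allograft cells and 948 CPM in native cells (4.29-fold lower, 3.40 to 5.41). Mmp3, stromelysin 1, had 364 UMIs in 5 allograft cells and 0 in native cells (at least 27.2-fold). Timp1, a protease inhibitor, had 715 against 243 CPM (2.90 times, 2.11 to 4.2), and its relative Timp2 573 against 1524 CPM (2.66-fold lower, 2.26 to 3.13). Within the Col2a1/Acan-rich cells 7 of 18 were higher and 0 lower (median 1.24, or 0.43 with bounds), and within the Col1a1-rich cells 2 of 16 were higher and 5 lower (median -0.30). Mmp2 followed this divide, with 178 and 144 CPM in Col2a1/Acan-rich cells of allograft and native trachea and 503 and 1240 CPM in Col1a1-rich cells.

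Signalling genes moved in no single direction. Among Wnt ligands and inhibitors 3 of 11 were higher and 2 lower. Notum, a secreted Wnt deacylase, had 380 CPM in 36 allograft cells and 51.2 CPM in 3 native cells (7.0 times, 3.71 to 17.4), and Wif1, a Wnt-binding inhibitor, 2067 and 1223 CPM. Within the classes Wif1 was nearly level, with 2301 CPM in allograft and 2283 CPM in native Col2a1/Acan-rich cells. In Col1a1-rich cells it had 885 and 838 CPM. Sfrp2, another secreted Wnt inhibitor, had 3 UMIs in allograft cells and 44 in 3 native cells.
Of 25 BMP and TGF-beta genes 2 were higher and 5 lower. Bmp2 had 554 against 365 CPM (1.51 times, 1.15 to 2.04; 50.3 against 323 CPM within the Col1a1-rich cells), and Id3, a target of BMP signals, 337 against 1152 CPM (3.42-fold lower, 2.80 to 4.17). Of 16 IGF, FGF and CCN genes 2 were higher and 6 lower. Fgfr3, a receptor that restrains chondrocyte growth, had 188 against 38.4 CPM (4.54 times, 2.19 to 13.6), and its ligand Fgf18 40.2 against 154 CPM (3.83-fold lower, 2.12 to 6.84). Igfbp6 had 40.2 against 948 CPM (23.2-fold lower, 15.7 to 36.7) and Igf1 100 against 333 CPM (3.32-fold lower, 2.27 to 4.81).
H19, an imprinted non-coding RNA (chr7:142575529-142578143), had 0, 2.5 and 113 UMIs per cell in the allograft (26 of 46 cells) and none in native cells (at least 65.9-fold). It was not held by 1 class: within the Col2a1/Acan-rich cells it had 730 UMIs in 23 allograft cells and 0 in the 7 native cells.

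Interferon-induced genes were higher in the allograft as well. Of 24 measured, 15 were higher and 0 lower. The list's median log2 ratio was 2.71, or 1.52 with genes at 0 UMIs in native cells placed at their bound. Cxcl10, a chemokine for T cells, had 680 UMIs in 14 of 46 allograft cells (976 CPM) and 0 in native cells, which allows up to 19.2 CPM (at least 50.8-fold higher). Its relative Cxcl9 had 559 UMIs in 11 cells and 0 in native cells (at least 41.8-fold), and Gbp4, a guanylate-binding protein, 398 UMIs in 21 cells and 0 (at least 29.7-fold).
The same held, from fewer UMIs, for the immunity-related GTPases Iigp1 and Igtp (208 UMIs in 20 cells and 172 in 19 cells against 0). Irf1 and Ifitm3 were not higher, with 68.9 against 115 CPM and 685 against 698 CPM. All 14 measured genes of MHC class I presentation were higher and 0 lower, with a median of 2.20. H2-K1 had 0, 24.5 and 145 UMIs per cell in the allograft and 0, 1.5 and 7 in native trachea, or 2370 against 263 CPM (8.92 times, 6.62 to 12.6). B2m had 2203 against 480 CPM (4.56 times, 3.64 to 5.87) and the immunoproteasome subunit Psmb9 195 against 12.8 CPM (12.2 times, 4.14 to 127). Within the Col2a1/Acan-rich cells 8 of 22 interferon-induced and 10 of 14 MHC class I genes were higher, with 1 and 0 lower, and within the Col1a1-rich cells 13 of 15 and 13 of 13, with 1 and 0 lower.

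These genes were read beside other cells of the same libraries. In the allograft, Cxcl9 had 802 CPM in chondrocyte-marker cells, 937 in other mesenchymal cells, 420 in macrophages and 62.7 in T cells. Cxcl10 had 976, 662, 248 and 34.5 CPM in the same order, and Gbp4 571, 414, 92.0 and 66.1 CPM. The level in chondrocyte-marker cells was thus above that of macrophages and T cells for all 3 genes. Without cells holding 5 or more leukocyte UMIs it was 126 CPM of Cxcl9, 151 of Cxcl10 and 85.5 of Gbp4, below macrophages and above T cells for each. Of the UMIs behind these values, a single cell held 48 of 50 for Cxcl9, 50 of 60 for Cxcl10 and 18 of 34 for Gbp4. The Cxcl9 and Cxcl10 levels thus rested mostly on that cell.
Igtp had 247 CPM against 123 in T cells, while H2-K1 had 2370 against 3950. MHC class II genes had levels near those of T cells: all 8 measured were higher in allograft than in native chondrocyte-marker cells, yet Cd74 had 4599 CPM in allograft ones against 4086 CPM in T cells of the same library, and H2-Aa 1339 against 1459 CPM. Without the cells holding leukocyte UMIs, Cd74 had 1860 CPM in allograft and 164 CPM in native chondrocyte-marker cells (11.1 times) and H2-Aa 573 and 21.3 CPM (23.1 times).
In native trachea, Cxcl10 was at 0 UMIs in chondrocyte-marker cells but had 294 CPM in other mesenchymal cells, 169 in macrophages and 171 in T cells.

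**Figure D4:**
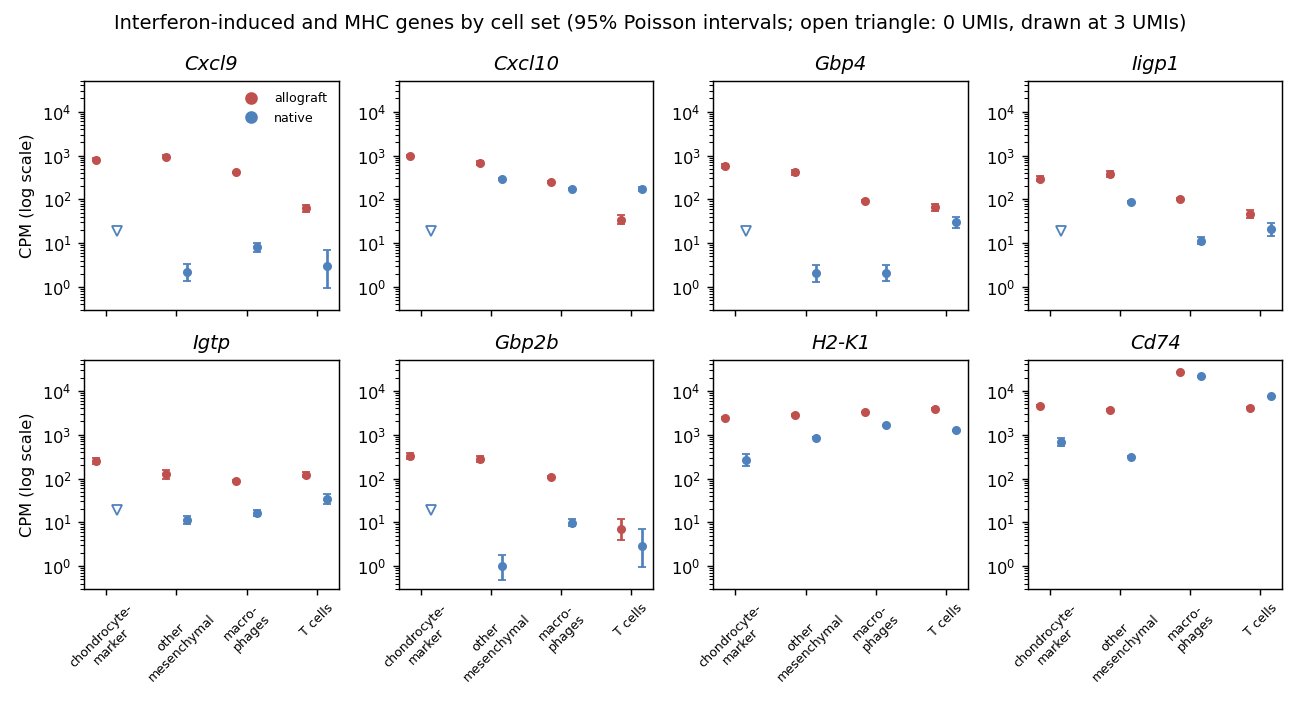
CPM (y axes, logarithmic) of 8 genes in chondrocyte-marker cells, other mesenchymal cells, macrophages and T cells of the allograft library (left, red) and the native library (right, blue), with 95% Poisson intervals. Open triangles stand at 3 UMIs where a set had 0 UMIs, as for Cxcl9, Cxcl10, Gbp4, Iigp1, Igtp and Gbp2b in native chondrocyte-marker cells.

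The interferon genes were concentrated in a subset of allograft cells, a division made after their values were seen. In 11 cells Cxcl9, Cxcl10 and Gbp4 summed to 10 or more UMIs (31, 111 and 367), and in the other 35 to 9 or fewer. The 11 cells had 0, 0 and 148 Col2a1 UMIs, with more than 10 in 1 cell, and the 35 cells had 0, 48 and 670, with more than 10 in 22 cells. Median Acan was 5 UMIs in the 11 cells against 18 in the 35, Sox9 11 against 12, and Prg4, the surface-zone lubricin, 31 against 2.
Leukocyte transcripts moved with this division: at least 5 UMIs were found in 10 of the 11 cells and 12 of the 35, and at least 20 in 4 and 3. Without the cells holding 5 or more leukocyte UMIs, 24 allograft and 18 native cells were left, and 16.1% of 3603 genes were higher and 10% lower. In them Cxcl10 had 151 CPM in the allograft (60 UMIs in 4 cells, at least 7.07-fold against 0), Iigp1 141 CPM (56 UMIs in 7 cells, at least 6.60-fold) and Gbp4 85.5 CPM (at least 4.00-fold). Cxcl9 had 50 UMIs in 2 of them (at least 5.89-fold). A single cell held 48 of these and 50 of the 60 Cxcl10 UMIs.
Of 16 interferon-induced genes still measured 10 were higher and 1 lower, and of 14 MHC class I genes 10 were higher and 0 lower. H2-K1 had 1393 CPM against 249 CPM in these cells (5.52 times, 3.97 to 8.11), B2m 1290 against 462 CPM (2.77 times, 2.15 to 3.67), and Psmb9 21 UMIs against 0 (at least 2.47-fold). Col2a1 had 7894 against 790 CPM (9.95 times, 8.27 to 12.2), and 7 of 7 cartilage collagens were higher. Dcn and Klf2 moved further apart, with 1664 against 16884 CPM (10.1-fold lower) and 302 against 2931 CPM (9.69-fold lower), while Col1a1 moved closer, with 2459 against 3856 CPM (1.57-fold lower). Ccl5, a T cell and macrophage chemokine with 336 UMIs in all allograft cells against 1, had 10.1 against 7.12 CPM without them. Retnla and S100a9, leukocyte genes lower in the allograft over all cells (49.8 and 18.1-fold), had 17.6 against 42.7 CPM and 17.6 against 21.3 CPM without them.

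Of 24 chemokines and inflammatory cytokines 14 were higher and 2 lower in the allograft. Besides Cxcl9 and Cxcl10, Lif and Il11 had 169 UMIs each, in 17 and 12 allograft cells, against 1 UMI each in native cells (25.3 times, 6.71 to 1505, for both), with 56.8% of the Il11 UMIs in 1 allograft cell. Il6 was lower, with 1 UMI in the allograft and 15 in 3 native cells. Ptgs2, the inducible prostaglandin synthase, had 1567 against 557 CPM (2.80 times, 2.26 to 3.54). In Col2a1/Acan-rich cells it had 1041 UMIs in the allograft and 0 in native trachea, and in Col1a1-rich cells 513 and 759 CPM.
Complement and coagulation genes divided into 4 higher and 5 lower of 12. C3 had 597 against 57.6 CPM (9.83 times, 5.41 to 22.8) and C4b 558 against 57.6 CPM (9.19 times, 5.05 to 21.3). Without the cells with leukocyte UMIs these were 216 against 49.8 CPM (4.08 times, 2.02 to 11.1) and 402 against 56.9 CPM (6.67 times, 3.50 to 16.7). F3, tissue factor, had 207 UMIs in 19 allograft cells and 1 in native cells. Of 18 hypoxia and glycolysis genes 7 were higher and 1 lower, among them the glucose transporter Slc2a1, with 158 against 19.2 CPM (7.08 times, 2.74 to 40.5).
Immediate early and heat shock genes were lower, 10 of 21, with 1 higher (Ier3) and a median of -0.97. Klf2 had 421 against 2651 CPM (6.30-fold lower, 5.41 to 7.35) and Fos 1613 against 3733 CPM (2.31-fold lower, 2.09 to 2.56).

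Y-linked transcripts divided the allograft cells from the rest of their library. A UMI of a Y-linked gene was found in 38 of 46 allograft chondrocyte-marker cells (82.6%, 68.6 to 92.2%), against 6 of 37 other mesenchymal cells, 14 of 1581 macrophages and 1 of 383 T cells. These 46 cells held 154 of the 207 Y-linked UMIs of the library. Xist, the RNA of the inactive X chromosome, was found in 11 of the 46, against 32 of the 37 other mesenchymal cells and 367 of the T cells.
Y-linked UMIs without Xist were found in 30 cells, Xist without Y in 3, both in 8 and neither in 5. In native trachea 0 of 20 cells had a Y-linked UMI, which allows up to 15%, and 19 had Xist. The chondrocyte-marker cells of the 2 libraries therefore differed in sex-linked RNA as well as in grafting, and the parts of these in the ratios above cannot be told apart. In the 30 allograft cells with Y-linked UMIs and no Xist, set against all 20 native cells, 539 of the 629 higher genes and 415 of the 446 lower genes remained 2-fold apart, and the log2 ratio of Col1a1 was -3.86 (-1.25 with all cells).

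**Figure D5:**
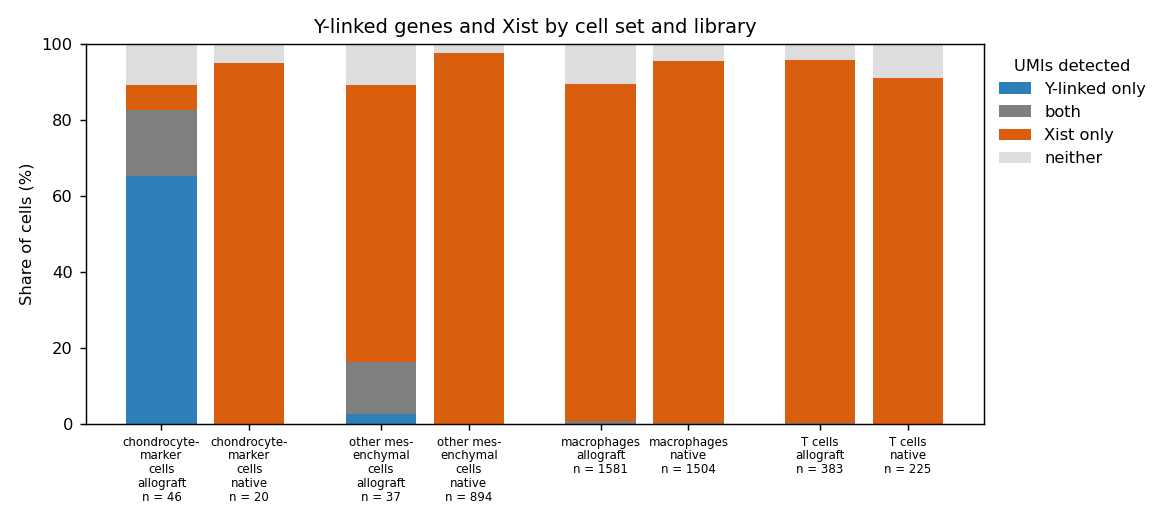
Share of cells (y axis, %) with Y-linked UMIs only, both, Xist only or neither, for chondrocyte-marker cells, other mesenchymal cells, macrophages and T cells, the allograft bar left of the native bar in each pair. Y-linked UMIs were found in 82.6% of allograft chondrocyte-marker cells and in 0 of 20 native ones.

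Chondrocyte-marker cells were last set against the other mesenchymal cells of their own library (at least 20 UMIs summed over Col1a1, Col1a2, Col3a1 and Dcn). These were 37 cells in the allograft, 24 of them with Pi16 or Dpp4, and 894 in native trachea, 645 of them with lung fibroblast genes. The comparison cells thus differed between libraries. Those 4 genes were high in them by choice, so their values here and in the fibrous list are a description. Cells with at least 5 marker UMIs that failed the terms on Pi16, Dpp4 or lung genes were not left out. In the allograft, 4 of the 37 comparison cells held 350 Col2a1 UMIs and 4 held 167 Cytl1 UMIs. The cartilage levels of the comparison cells, and the ratios to them, therefore include such cells. In the allograft 7.70% of 5893 genes were 2-fold or more higher in chondrocyte-marker cells and 13.9% lower, and in native trachea 12.1% of 5474 were higher and 11.6% lower. With median-of-ratios scaling the allograft counts were 583 higher and 664 lower, in place of 454 and 820.
All 7 cartilage collagens were higher in chondrocyte-marker cells of both libraries, Col2a1 among them through the rule. Col11a2 had 1836 CPM against 101 CPM in the allograft (18 times, 13.8 to 24.4) and 525 against 1.0 CPM in native trachea (501 times, 270 to 1131). Of cartilage glycoproteins, 14 of 17 were higher and 2 lower in the allograft, and 11 of 14 higher and 0 lower in native trachea, counts that include Cytl1 and Cnmd of the rule. Chondrocyte transcription factors numbered 7 of 11 higher in the allograft and 8 of 13 in native trachea, with 0 lower in both. Sox9 had 988 against 286 CPM in the allograft (3.44 times, 2.89 to 4.14) and 218 against 99.5 CPM in native trachea (2.22 times, 1.51 to 3.08). Of the 34 native Sox9 UMIs, 21 lay in the 7 Col2a1/Acan-rich cells (505 CPM). The 13 native Col1a1-rich cells had 113 CPM, near the level of the other mesenchymal cells.

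In the allograft, Rflna and Colgalt2 (a collagen galactosyltransferase) had 80 and 43 UMIs in chondrocyte-marker cells and 0 in the other mesenchymal cells. Matn3 had 142 against 1.91 CPM (49.9 times, 13.1 to 2970) and Notum 380 against 9.54 CPM (36.3 times, 16.9 to 124). Lower were Sfrp2 and Sfrp4, secreted Wnt-binding proteins, with 4.31 against 762 CPM (152-fold lower, 60.1 to 861) and 1.44 against 330 CPM (154-fold lower, 40.8 to 9140). Gpc3, a glypican of fibroblasts, had 0 UMIs against 63.
Of 16 complement genes 12 were lower and 1 higher, with C3 at 597 against 3268 CPM (5.47-fold lower, 4.91 to 6.11). Interferon-induced genes did not set the cells apart, with 0 of 25 higher and 6 lower (median -0.22 on the log2 scale), and 0 of 14 MHC class I genes were 2-fold apart. The median over all genes compared was -0.16.

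In native trachea, Ucma, a matrix protein of the upper growth plate, had 86 UMIs in 7 chondrocyte-marker cells and 0 in the 894 others (at least 1828-fold). Comp had 2023 against 17.1 CPM (118 times, 98 to 144) and Cemip, which breaks down hyaluronan, 403 against 0.904 CPM (426 times, 221 to 1021). The elastic-fibre gene Fbln2, with 9321 UMIs in the other cells, had 0 in chondrocyte-marker cells (at least 48.7-fold lower), as did Spon2, Dpt, Fmo2 and Ntrk2.
Fibrous genes were not lower as a group: 9 of 29 were higher and 10 lower. Dcn had 15252 against 4666 CPM (3.27 times, 3.14 to 3.41) and Col1a1 3477 against 3399 CPM (1.02 times, 0.938 to 1.11). In the allograft the same list had 3 of 29 higher and 17 lower, with Col1a1 at 1467 against 11734 CPM (8.0-fold lower, 7.49 to 8.55). MHC class I genes were 0 higher and 5 lower of 14 in native trachea, with H2-K1 at 263 against 847 CPM (3.19-fold lower, 2.38 to 4.50).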

How the data were processed

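Cells of tracheal allograft, native trachea and spleen were profiled with 10x Chromium Single Cell 3' v3 chemistry, per the labels, with 4 samples of each source in 1 matrix. The deposited values are UMI counts per gene and barcode, which the authors made with Cell Ranger 3.1.0, per the file headers, on mm10, per the submitters' processing notes. The count matrices held 26503045, 31415458 and 28318436 UMIs for allograft, native trachea and spleen. Barcodes with at least 500 genes and at most 20% mitochondrial UMIs were kept, 3895, 4156 and 4579 of 4611, 4626 and 4856. Of 31053 gene IDs, 30934 were in GENCODE M21. The cells, rule and gene lists were chosen with earlier results of these data known.

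UMIs were summed over the cells of a set and divided by the set's total. Ratios had 0.5 UMI added to each sum and a 95% exact conditional binomial interval; CPM have Poisson and shares exact binomial intervals. Genes with at least 20 summed UMIs and a mean of at least 20 CPM were counted as apart at 2-fold. Against 0 UMIs, a fold was bounded with 3 UMIs in the set at 0. With 1 library per source no model was fitted and no p-value is given.

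Genes were named by rule: in each comparison, the 12 genes furthest apart in either direction that reached 50 CPM, 30 UMIs and 20% of cells in the higher set, the rule's genes, cell type and sex-linked markers, members of the cartilage, perichondrium and signalling lists, and the 4 members of each other list with the largest ratios. Other named genes, such as Irf1, Ifitm3 and Lyz2, were chosen after their values were seen. Comparisons of cell classes were planned for sets of at least 20 cells; sets of at least 5 are given instead, a choice made after seeing the data. The division by Cxcl9, Cxcl10 and Gbp4, the comparison of cells with Y-linked UMIs and the bound on list members at 0 UMIs were also added after seeing the data. Doublets were kept: scrublet (in scanpy 1.11.5) marked 0.950% of allograft and 0.192% of native barcodes, among them 0 chondrocyte-marker cells, where 0.8% per 1000 barcodes would give 3.69% and 3.70%, so doublets may remain in both libraries. On simulated counts for 31053 genes, 200 of them changed, the intervals held the true ratio for 99% of changed genes in the comparison of libraries, and for 95% (allograft) and 97.5% (native) against other mesenchymal cells. The simulated counts were Poisson draws from pooled shares, as the intervals assume. They left out the unevenness between cells, so they check the calculation only. Python 3.11.15, numpy 2.4.6, scipy 1.17.1, pandas 2.3.3 and matplotlib 3.10.9 were used.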

Additional observations from a re-analysis of the deposited data

Results flagged for a closer look

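For 13 of the 144 named genes the ratio of chondrocyte-marker cells to the other mesenchymal cells was 2-fold or more in opposite directions in the 2 libraries. Over all genes compared, 21.6% of 5893 in the allograft and 23.7% of 5474 in native trachea were 2-fold or more apart. How many of all genes went opposite ways is not given here. Each library is 1 pooled sample, so these differences between libraries were not tested, and the other mesenchymal cells were mostly lung-gene cells in native trachea. On the log2 scale, matrix genes were lower in the allograft and higher in native trachea: Mmp13 at -2.50 and 10.80, Dcn (decorin) at -1.51 and 1.71, and Aspn (asporin) at -2.21 and 1.34. The same held for the thrombospondins Thbs2 (-2.99 and 3.66) and Thbs4 (-3.96 and 3.44) and for Itgbl1 (-5.73 and 1.34). Among signalling and other genes it held for Sfrp2 (-7.25 and 2.22), Igf1 (-2.47 and 1.55), Fst, the activin inhibitor follistatin (-2.54 and 2.91) and Rrad (-2.16 and 3.71). The Wnt deacylase gene Notum went the other way, at 5.18 in the allograft and -1.05 in native trachea, as did Il11 (1.76 and -2.12) and Sparcl1 (5.39 and -3.06). Some of these values rested on few UMIs or cells. Native chondrocyte-marker cells held 8 UMIs of Notum and 1 of Il11, and their 238 Mmp13 UMIs lay in 3 cells.

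In the allograft library 5 barcodes that failed the filter on genes or mitochondrial UMIs met every other term of the rule, against 0 in native trachea and 0 in spleen. They entered no comparison.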

How the results depend on the processing

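Counts of genes 2-fold apart moved most with the depth asked of a gene. Between allograft and native cells they were 629 higher and 446 lower, 90 and 89 with cells thinned to 1500 UMIs, and 154 and 111 with minimums of 100 UMIs and 50 CPM. Without the top cell of each gene 262 were lower. Against other mesenchymal cells the allograft counts were 122 higher and 159 lower when thinned and 171 and 218 with the higher minimums. In native trachea they were 1444 higher when thinned, 276 higher and 1146 lower without the top cell, 1977 and 1766 with no minimum CPM, and 262 and 304 with the higher minimums. With classes set by Col2a1 and Acan against Col1a1, Col1a2 and Col3a1, 317 genes were higher in allograft Col2a1/Acan-rich than Col1a1-rich cells (544 before), and 483 higher in allograft than native Col1a1-rich cells (239 before). Leaving out cells with leukocyte UMIs gave 24 allograft cells. Higher minimums leave fewer genes to count, as did thinning in the first 2 comparisons (717 and 946 genes). For thinning in native trachea and the other settings the cause was not tested.

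Of 5143 log2 ratios of 144 named genes under alternatives, 14 reversed. With Y-linked allograft cells only, Postn was at -1.97, Dpt at -1.59 and Col14a1 at -2.32. Against other mesenchymal cells of the allograft, Tnn was at -0.41 with 10 or more marker UMIs and -0.35 when thinned, Ccl5 at -2.89 without leukocyte UMIs, and Ntrk2 at 0.38 and Foxf1 at -0.35 when thinned. In native trachea, H2-Aa was at -1.05 without leukocyte UMIs and -1.47 without the top cell, Ccl5 at -0.31 and Cd74 at -0.65 without the top cell, and Igtp at 0.62 and Sfrp4 at 0.96 when thinned.

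No paired analysis was possible because the matrices pool the 4 samples of a source without marking them, which also kept any sample from being left out in turn. Class comparisons, with 7 cells on one side, were run only under other class boundaries. Sets of 20 and 46 cells limit every ratio to counting error of these libraries.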
